A study of Mus musculus with 135 samples.

Results

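Sickle (SS) and normal (AA) mice that had both been through repeated social defeat, a social stress, were compared by RNA sequencing in cortex and in hippocampus. The members are the 18 libraries of the 9 mice exposed to the stress and given no minocycline, out of 135 samples listed in the series: 6 SS + RSD mice and 3 AA + RSD mice, each with 1 cortex and 1 hippocampus library. They were chosen by their labels for stress exposure, treatment and disease state. All were male Townes mice of about 6 months, in which human globin genes stand in for the mouse ones: SS mice carry the sickle form of the human beta globin gene and AA mice the normal form, so the AA mice share the humanised globin locus. In repeated social defeat (RSD) an aggressive intruder male was placed with 3 resident mice in their home cage for 2 h a day on 6 days. The labels do not give the cage, so mice of 1 group that met the same intruder cannot be told apart from mice that did not. The other groups of the series (no stress with or without minocycline, an antibiotic that dampens microglia, and RSD with minocycline) entered the same statistical model and are used below to place the difference.

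Sickle haemoglobin polymerises when it gives up its oxygen, red cells lyse and clog small vessels, and the marrow and spleen answer with a high output of immature red cells, the reticulocytes, which still carry RNA for haem synthesis and membrane proteins. A bulk library of brain tissue holds the RNA of its vessels and of the blood within them beside that of nerve and glial cells. Chronic haemolysis is also known to go with type I interferon signalling, an activated vessel wall and low oxygen delivery, and each of these has well-known target genes. In bulk tissue, fewer cells of a type and less RNA per cell cannot be told apart.

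The 2 libraries of 1 AA + RSD mouse, 9674, went against their region labels. A region score was set from control mice, with 0% at the control cortex and 100% at the control hippocampus. The library of mouse 9674 labelled cortex scored 102.9% and the one labelled hippocampus -3%. In the other 8 mice cortex libraries scored from -2% to 34.6% and hippocampus libraries from 77.8% to 111.5%. Dsp, which marks granule neurons of the dentate gyrus, was at 62.1 CPM, the read count scaled to library size, in the library labelled cortex, where the 67 other cortex libraries of the series lay between 0.0794 and 2.47 CPM, and at 0.123 CPM in the library labelled hippocampus, where the 65 others lay between 23.1 and 130.1 CPM. Ttr, which marks the choroid plexus of the ventricle, was at 5192 CPM in the library labelled cortex and 10.8 CPM in the other. Ttr is less firm as a region mark, because hippocampus libraries of the other 8 mice ran from 5.39 to 9097 CPM. The 2 libraries still matched each other as 1 animal: over 200 genes that differ between mice, each of the 9 mice had its own other library as its best match. The columns of mouse 9674 were therefore exchanged, and every value below is after that exchange unless it is said to be as labelled. These scores and markers are what the exchange was based on and are given as a description, without a test. Mouse 9621 (SS + RSD), at 34.6% in cortex and 77.8% in hippocampus, had the least distinct pair among the other 8.

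**Figure D1:**
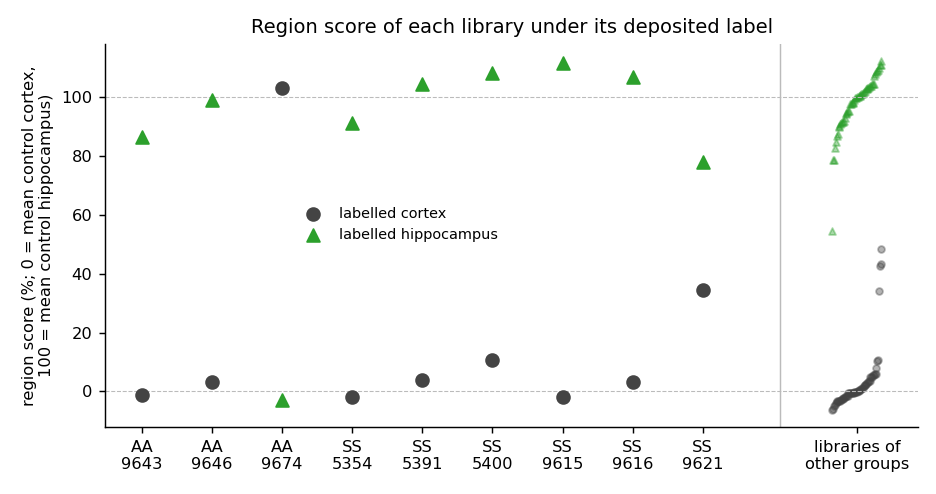
Region score (vertical, percent; 0 is the mean control cortex and 100 the mean control hippocampus) of the 2 libraries of each compared mouse, with the libraries of the other groups at the right; circles were labelled cortex and triangles hippocampus. For mouse 9674 the circle sits at 102.9% and the triangle at -3%, the reverse of the other 8 mice.

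The compared libraries held 12869149 to 70016768 reads on genes. Alas2, which encodes the erythroid enzyme that starts haem synthesis, separated the genotypes in all 9 compared mice, and these 18 libraries held 0 to 8 reads of the mouse gene Hbb-bs, which the Townes strain lacks. Outside the compared mice, both libraries of mice 5844 (AA), 5853 (AA + RSD + minocycline) and 7078 (SS + RSD + minocycline) had Alas2 nearer to the level of the opposite genotype than to that of their label, and mouse 9631 (AA) had 1944 and 1570 Hbb-bs reads. These 4 mice are in neither the SS + RSD nor the AA + RSD group, but they enter the spread that the model shares between groups and the means of the control and RSD + minocycline mice, so the counts of genes are also given without them. Alas2 was itself what set mice 5844, 5853 and 7078 apart, so a smaller spread of red cell genes without them follows from the choice.

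After the exchange, 3 genes passed in cortex and 3 in hippocampus (edgeR quasi-likelihood test, Benjamini-Hochberg adjusted p under 0.05), which is 0.0131% of 22863 and 0.0129% of 23177 genes tested. In cortex all 3 were higher in SS + RSD mice: Rsad2, Fam46c (now Tent5c) and Ube2l6. In hippocampus Rsad2 and Fam46c were higher and Igkv12-46, an antibody light chain segment, was lower. At an unadjusted p under 0.05 there were 706 genes in cortex (3.09%) and 678 in hippocampus (2.93%). Without the 4 mice named above, 19 genes passed in cortex (0.0833%), all higher, and 17 in hippocampus (0.0735%), of which 16 were higher, and 12 genes were shared between the regions. Averaged over the 2 libraries of each mouse, a value that is the same whichever library is called cortex, 22 genes were higher and 1 lower (limma, 0.119% of 19373 genes).

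The exchange removed most of the genes that the labelled columns would give. As labelled, 113 genes passed in cortex (0.493% of those tested), 22 higher and 91 lower, and 181 in hippocampus (0.78%), 32 higher and 149 lower. Of the 91 lower in cortex, 64 were genes that control mice express more in hippocampus, and of the 149 lower in hippocampus, 116 were genes that control mice express more in cortex. Region genes made up 56.6% of the genes passing in cortex and 69.6% in hippocampus, against 6.83% and 6.74% of the genes tested. The 3 genes that passed in each region after the exchange had also passed as labelled. Over the genes that passed as labelled, the median size of the log2 difference went from 2.43 to 0.43 in cortex and from 1.13 to 0.32 in hippocampus. Dsp moved in cortex from a log2 difference of -5.00 as labelled to 1.80 (SE 0.96, adjusted p = 1) after the exchange. Ttr moved from -7.95 to -0.89 (SE 1.19, adjusted p = 1). Other genes that led the labelled cortex result, such as Kcne2, a potassium channel subunit of the choroid plexus, lay after the exchange at or below 0.117 CPM in all 9 cortex libraries. Exchanging also cost some red cell genes their call in a single region while their difference stayed the same: Alas2 in cortex was 4.31 (unadjusted p = 5.67e-05) as labelled and 4.22 (unadjusted p = 7.6e-05) after the exchange, but its adjusted p went from 0.0188 to 0.171, since that adjustment depends on how many other genes have small p-values.

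**Figure D2:**
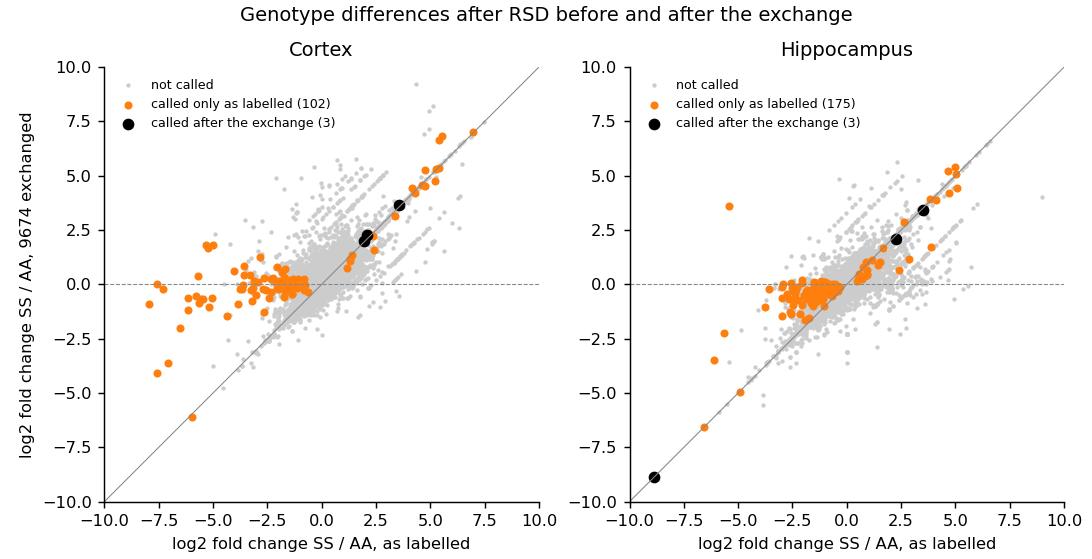
Log2 difference SS + RSD minus AA + RSD of every gene as labelled (horizontal) against after the exchange of the libraries of mouse 9674 (vertical), in cortex and in hippocampus, with genes that passed coloured. Of the 102 cortex and 175 hippocampus genes that passed as labelled alone and were still tested after the exchange, many spread along the horizontal axis. Others, such as Alas2 in cortex (4.31 as labelled and 4.22 after), lie near the diagonal, as do the 3 that passed after the exchange in each region.

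Of the interferon and MHC class I list, Rsad2 was the 1 gene that passed in each region. Rsad2 (ENSMUSG00000020641.17), the antiviral enzyme viperin, is a classic target of type I interferon. In cortex the AA + RSD mice 9643, 9646 and 9674 had 1.44, 1.62 and 1.35 CPM, and the 6 SS + RSD mice ran from 12.9 through a median of 15.2 to 28.6 CPM. In hippocampus the AA + RSD mice had 1.60, 0.694 and 1.56 CPM, and the SS + RSD mice ran from 9.14 through 11.7 to 22.01 CPM. The groups were apart in both regions, with the lowest SS + RSD mouse far above the highest AA + RSD mouse. The log2 difference was 3.66 (SE 0.63, adjusted p = 0.00536) in cortex, 3.41 (SE 0.55, adjusted p = 0.00133) in hippocampus and 3.46 (adjusted p = 0.000223) for the mean of both. Fam46c (Tent5c, ENSMUSG00000044468.15) encodes a poly(A) polymerase that is induced by interferon and is also high in red cell precursors. Its AA + RSD values were 3.50, 2.86 and 3.54 CPM in cortex, where SS + RSD mice ran from 10.4 through 13.3 to 26.2 CPM, a log2 difference of 2.27 (SE 0.42, adjusted p = 0.0154). In hippocampus the AA + RSD mice had 3.18, 2.85 and 4.68 CPM and the SS + RSD mice 10.8 to 20.2 CPM, a difference of 2.08 (SE 0.41, adjusted p = 0.0374). Ube2l6 (ENSMUSG00000027078.15), which joins the small modifier ISG15 to its targets, had 6.31, 4.67 and 7.03 CPM in AA + RSD cortex and 16.03 to 28.4 CPM, median 25.6, in SS + RSD cortex (log2 difference 1.98, SE 0.40, adjusted p = 0.0445). In hippocampus its groups did not overlap either, at 4.3, 5.63 and 7.002 CPM against 13.7 to 22.9 CPM, but it did not pass there (1.68, SE 0.41, adjusted p = 0.173).

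Isg15, the modifier itself, passed in the mean of both regions (2.25, adjusted p = 0.0024). It had 1.13, 1.05 and 1.01 CPM in AA + RSD cortex and 4.69 to 10.7 CPM, median 7.29, in SS + RSD cortex, and in hippocampus 1.21, 1.62 and 1.62 CPM against 2.83 to 7.88 CPM. Isg20, an interferon-induced exonuclease, likewise passed in the mean (2.98, adjusted p = 6.71e-05), with 0.524 to 1.51 CPM in AA + RSD cortex against 7.69 to 14.7 CPM, and 0.999 to 1.02 CPM against 6.001 to 9.102 CPM in hippocampus. The other members of the interferon list did not pass. Of 21 interferon and MHC class I genes, all tested, Rsad2 passed in each region and Rsad2 and Isg15 in the mean, and 3 had an unadjusted p under 0.05 in each region. The median log2 difference of the list was 0.48 in cortex and 0.30 in hippocampus, against 0.02 and 0.00 over all genes tested. Ifit1 and Ifit3, among the most strongly induced interferon targets in most cells, had differences of 0.05 and 0.09 in cortex and 0.10 and 0.12 in hippocampus (adjusted p = 1 for each). Usp18, which ends the interferon signal, had 0.67 in cortex and 0.41 in hippocampus, and did not pass. The summed level of the list overlapped between the groups in both regions, at 209.7 to 253.8 CPM in AA + RSD cortex and 245.3 to 528 CPM in SS + RSD cortex. Isg15, Ube2l6 and Alas2 share 31.1%, 23.7% and 13.8% of their exon bases with genes on the opposite strand, and whether strand was used in the counting is not stated.

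Interferon is known to act through a short promoter sequence, the interferon-stimulated response element, and whether it acted here was not tested. The promoters of Rsad2 and Isg15 are shown because both genes passed in the mean of both regions. Each is the 250 bases before the start of the gene's canonical GENCODE transcript (GRCm39, written 5′ to 3′ on the gene's own strand), Rsad2 at chr12:26506452-26506701 (minus strand) and Isg15 at chr4:156285304-156285553 (minus strand), and capitals mark matches to the element (GAAA, any 2 bases, GAAA, on either strand).
Rsad2: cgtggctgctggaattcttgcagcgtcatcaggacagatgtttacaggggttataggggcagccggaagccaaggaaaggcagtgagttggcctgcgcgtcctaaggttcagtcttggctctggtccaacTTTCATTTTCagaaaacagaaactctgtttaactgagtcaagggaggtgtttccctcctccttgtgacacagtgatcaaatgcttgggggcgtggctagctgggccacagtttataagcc
Isg15: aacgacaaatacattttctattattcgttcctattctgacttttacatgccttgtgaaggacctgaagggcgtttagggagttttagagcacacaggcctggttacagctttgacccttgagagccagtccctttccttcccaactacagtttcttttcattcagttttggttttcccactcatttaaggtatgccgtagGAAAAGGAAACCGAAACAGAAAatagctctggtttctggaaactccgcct

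The Rsad2 window holds 1 match whose first base is 120 bases upstream of the start, and the Isg15 window 3 overlapping matches, the nearest 38 bases upstream. Searched on both strands, 3.32% of 21757 protein-coding promoters of that length held a match, and 9 of the 21 interferon and MHC class I genes (42.9%) did, Ifit1, Ifit3, Usp18 and Stat2 among them. A match is a run of letters and not a measured binding site, and genes with a match whose difference was near 0, such as Ifit1, stand beside Rsad2 in that count.

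Genes of red cell precursors differed by wide margins, and each one that passed was higher in SS + RSD mice. 8 of the 22 genes higher in the mean of both regions belong to a list of 30 red cell precursor genes, among them Alas2, Slc4a1, Hba-x, Trim10, Tspo2, Epb42 and Bpgm. Alas2 (ENSMUSG00000025270.14) had 6.35, 5.53 and 9.09 CPM in AA + RSD cortex and ran from 102 through 134 to 161 CPM in SS + RSD cortex. In hippocampus it had 5.27, 7.09 and 7.58 CPM against 91.7 to 111 CPM, median 99.3. Its level differed by a log2 value of 4.06 (SE 0.13, adjusted p = 4.02e-07) in the mean of both regions, with each SS + RSD mouse more than any AA + RSD mouse in both. Slc4a1 (ENSMUSG00000006574.16), the band 3 anion exchanger of the red cell membrane, had 0.583, 0.334 and 0.884 CPM in AA + RSD cortex against 9.85 to 28.2 CPM, median 15.1, and 0.303, 0.308 and 0.382 CPM in AA + RSD hippocampus against 8.09 to 20.2 CPM, median 12. Its log2 difference was 4.80 (SE 0.28, adjusted p = 3.55e-05).

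The same pattern ran through haemoglobin, membrane and maturation genes. Hba-x, an embryonic alpha-like globin gene of the mouse, had at most 0.509 CPM in any AA + RSD library and 5.24 to 10.8 CPM in the SS + RSD libraries (mean of both regions 4.50, adjusted p = 2.44e-06). Trim10, an erythroid E3 ligase gene, had at most 0.172 CPM against at least 1.88 CPM (4.20, adjusted p = 8.65e-06), and Tspo2, an erythroid cholesterol transporter gene, at most 0.154 CPM against at least 1.06 CPM (3.53, adjusted p = 4.94e-05). Epb42, a protein of the red cell membrane, had at most 0.0955 CPM in AA + RSD libraries, some of them without a read, against at least 0.733 CPM, so the size of its fitted difference (3.87, adjusted p = 0.000394) depends on the prior count of 2 added before the log. Bpgm, which makes the bisphosphoglycerate that lowers the oxygen affinity of haemoglobin, is expressed well beyond red cells and differed less: 65.5, 64.5 and 68.8 CPM in AA + RSD cortex against 114 to 138 CPM, and 59.5, 72.5 and 67.1 CPM against 103 to 125 CPM in hippocampus (0.81, adjusted p = 0.00111). Hbq1a, a theta globin gene outside the list, had at most 0.382 CPM against at least 0.587 CPM (1.97, adjusted p = 0.00152).

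Within a single region none of the 25 red cell genes tested in cortex or the 23 in hippocampus passed in the model of all groups, although 14 and 13 had an unadjusted p under 0.05, all higher, and DESeq2 called 7 and 6. Every SS + RSD mouse lay above every AA + RSD mouse for 12 of the 25 in cortex and 13 of the 23 in hippocampus, where 1.61% and 1.21% of all genes did so. The spread moved with the 4 mice named above: the standard error of the Alas2 difference in cortex was 1.00 with them and 0.51 without them, and without them 7 red cell genes passed in cortex and 6 in hippocampus (Alas2 adjusted p = 1.1e-07 and 2.46e-05, Slc4a1 3.15e-06 and 1.71e-06). Most of these mice were picked by their Alas2 level, so this gain in red cell genes was built into the choice and is a description. The median difference over the genes that passed the filter on low counts, 3.06 in cortex and 1.27 in hippocampus, is a description, as some of them passed through their level in SS mice. Ank1, an ankyrin on the list that brain cells also express, had -0.25 and -0.01. Ahsp, Hbb-y, Hbb-bh1 and Gfi1b were too low to test in either region. Of leukocyte genes, which blood would also carry, S100a9 (a neutrophil calcium-binding protein) had 0.0686 to 0.379 CPM in AA + RSD cortex and 0.409 to 1.35 CPM in SS + RSD cortex (2.07, SE 0.96, adjusted p = 1), and none of 16 in cortex or 14 in hippocampus passed by edgeR or DESeq2, with 2 and 1 at an unadjusted p under 0.05. The leukocyte genes that passed the filter on low counts still leaned higher, which is a description. Their median was 0.68 in cortex, with 15 of 16 above 0, and 1.02 in hippocampus, with all 14 above 0. Of all genes tested, 53.1% and 50.5% were above 0. The summed leukocyte level overlapped, at 8.03 to 11.9 CPM against 8.73 to 33.8 CPM in cortex and 6.40 to 6.63 CPM against 5.71 to 20.5 CPM in hippocampus.

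Promoters of Alas2 (chrX:149330121-149330370, plus strand) and Slc4a1 (chr11:102256107-102256356, minus strand) are shown as those of the erythroid haem enzyme and of the membrane exchanger, since erythroid genes are classically driven by GATA1. They are the same 250 base windows (GENCODE, GRCm39, 5′ to 3′ on the gene's strand), with matches to AGATAA or its reverse complement in capitals.
Alas2: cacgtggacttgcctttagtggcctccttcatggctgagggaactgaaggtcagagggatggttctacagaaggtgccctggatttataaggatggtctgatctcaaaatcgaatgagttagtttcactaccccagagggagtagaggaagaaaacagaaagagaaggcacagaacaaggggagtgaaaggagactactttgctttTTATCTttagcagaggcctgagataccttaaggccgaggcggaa
Slc4a1: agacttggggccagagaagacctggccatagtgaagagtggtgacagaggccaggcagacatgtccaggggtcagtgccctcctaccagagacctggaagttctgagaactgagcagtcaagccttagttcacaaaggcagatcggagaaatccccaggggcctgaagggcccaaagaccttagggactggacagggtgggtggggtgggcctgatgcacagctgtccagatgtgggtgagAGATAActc

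The match lies 44 bases upstream in Alas2 and 9 bases upstream in Slc4a1. On both strands 9.61% of the 21757 promoters held this motif, and 9 of the 30 red cell precursor genes (30%) did, among them Epb42 and Trim10 but not Hba-x.

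**Figure D3:**
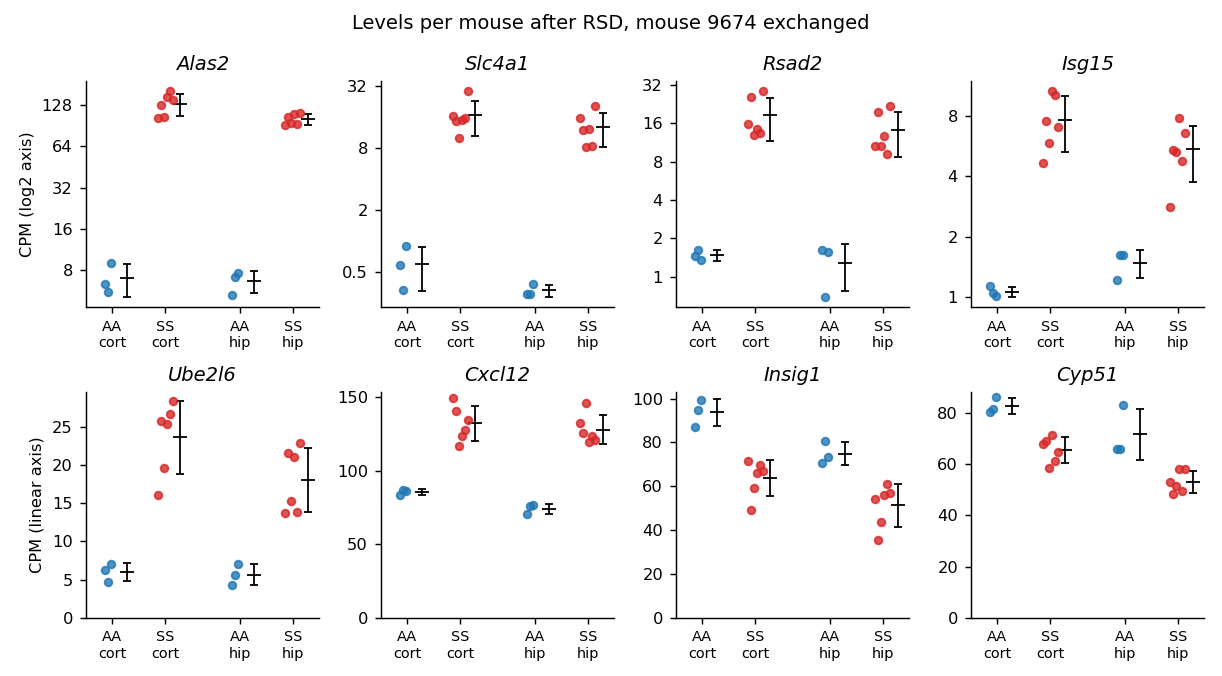
CPM of named genes in each mouse (points) after the exchange, by group and region, with group mean and SD; the upper panels have a log2 axis and the lower panels a linear axis from 0. Rsad2, Alas2 and Slc4a1 of SS + RSD mice lie above all AA + RSD mice in both regions, at 9.14 to 28.6, 91.7 to 161 and 8.09 to 28.2 CPM.

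Genes of the vessel wall and of low oxygen were the next group. Cxcl12, a chemokine made by endothelium and stroma that holds haematopoietic cells in the marrow, had 83.3, 86.8 and 86.5 CPM in AA + RSD cortex and ran from 117 through 131 to 150 CPM in SS + RSD cortex. In hippocampus it had 70.2, 75.8 and 76.5 CPM against 120 to 146 CPM, median 125. The 3 AA + RSD mice lay close together and below all 6 SS + RSD mice in both regions, and the mean differed by 0.69 on the log2 scale (adjusted p = 0.00145). Eng (endoglin), an endothelial co-receptor of the TGF-beta family, differed by 0.51 (adjusted p = 0.037), at 22.1 to 24.2 CPM against 29.8 to 38.8 CPM in cortex, and in hippocampus at 20.3 to 29.38 CPM against 29.40 to 40.2 CPM, where the groups nearly touched. Adm (adrenomedullin), a vasodilator peptide and a target of the hypoxia-inducible factors, had 2.61, 1.91 and 3.20 CPM in AA + RSD cortex against 3.84 to 5.44 CPM, and 1.15, 0.925 and 1.21 CPM in hippocampus against 2.35 to 3.91 CPM (mean 1.05, adjusted p = 0.0405). Eng kept its call in 4 and Adm in 2 of 13 alternatives, whereas Cxcl12 kept it in 13 of 13. Adm shares 31.9% of its exon bases with a gene on the opposite strand.

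Of 16 hypoxia response genes, Adm was the 1 that passed in the mean, where 0.119% of all genes did, and 5 had an unadjusted p under 0.05 in each region, all higher, against 3.09% of all genes in cortex and 2.93% in hippocampus. Their median difference was 0.18 in cortex and 0.25 in hippocampus. All 16 were above 0 in hippocampus, but 4 were below 0 in cortex and 4 in the mean of both regions. Vegfa, the endothelial growth factor, had 44.2 to 53.8 CPM in AA + RSD cortex against 59.1 to 89.5 CPM and did not pass (0.53, SE 0.24, adjusted p = 1). Slc2a1, the glucose transporter of the blood-brain barrier, had 99.6 to 112 CPM against 128 to 178 CPM and did not pass (0.47, SE 0.20, adjusted p = 1). Summed over the list, AA + RSD mice had 727.1 to 761.6 CPM in cortex and SS + RSD mice 790 to 921.5 CPM, without overlap. The 24 blood-brain barrier endothelium genes had medians of 0.31 in cortex and 0.28 in hippocampus, with 21 of 24 above 0 in each region. None of the 24 passed by edgeR in either region or by limma in the mean, where 6, 7 and 10 had an unadjusted p under 0.05, all higher, and DESeq2 called 1 in cortex and 0 in hippocampus. Every SS + RSD mouse was above every AA + RSD mouse for 6 of 24 in cortex, 7 in hippocampus and 10 in the mean, where 1.61%, 1.21% and 1.1% of all genes were. Their sum was 831.4 to 877.2 CPM in AA + RSD cortex and 934.6 to 1164 CPM in SS + RSD cortex, and 815.5 to 826.2 CPM against 932 to 1082 CPM in hippocampus. Vwf (von Willebrand factor), which tethers platelets, differed most among them, at 29.8, 25.5 and 30.5 CPM in AA + RSD cortex against 37.9 to 122 CPM, median 66.9 (1.34, SE 0.34, adjusted p = 0.232), and passed in cortex without the 4 mice (1.35, adjusted p = 0.0212). Kdr and Pecam1, a VEGF receptor and an endothelial adhesion molecule, had 0.53 and 0.47 in cortex and 0.65 and 0.46 in hippocampus and did not pass.

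Cholesterol genes lay on the other side of 0, although no single one passed. Most of them are targets of SREBP2, the factor that switches on cholesterol synthesis and uptake when sterol is scarce. Of 21 tested, 19 had a negative difference in cortex and 20 in hippocampus, with medians of -0.31 and -0.26. Neither edgeR nor DESeq2 called any in a region, and limma called none in the mean, while 10 in cortex, 5 in hippocampus and 15 in the mean were lower at an unadjusted p under 0.05, and 1 was higher in each. Every SS + RSD mouse lay below every AA + RSD mouse for 6 of 21 in cortex, 8 in hippocampus and 11 in the mean, where 1.36%, 0.721% and 1.1% of all genes did. Their sum was 1833 to 1906 CPM in AA + RSD cortex and 1454 to 1726 CPM in SS + RSD cortex, and 1443 to 1575 CPM against 1235 to 1429 CPM in hippocampus. Insig1, which holds SREBP2 in the endoplasmic reticulum, had 87.2, 94.8 and 99.3 CPM in AA + RSD cortex and ran from 49.2 through 66.5 to 71.5 CPM in SS + RSD cortex (-0.56, SE 0.14, adjusted p = 0.207). In hippocampus it had 70.7, 80.6 and 73.4 CPM against 35.4 to 60.9 CPM, median 55.01 (-0.55, SE 0.15, adjusted p = 0.415). Cyp51, which acts late in the synthesis, had -0.34 in cortex and -0.43 in hippocampus. Acss2, which makes acetyl-CoA from acetate, had 71.7, 66.4 and 83.1 CPM in AA + RSD cortex against 45.4 to 61.8 CPM (-0.41, SE 0.11, adjusted p = 0.31). A sterol regulatory element (TCACNCCAC, both strands) was in 1 of the 21 promoters (4.76%), that of Hmgcs1, and in 1.12% of all.

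**Figure D4:**
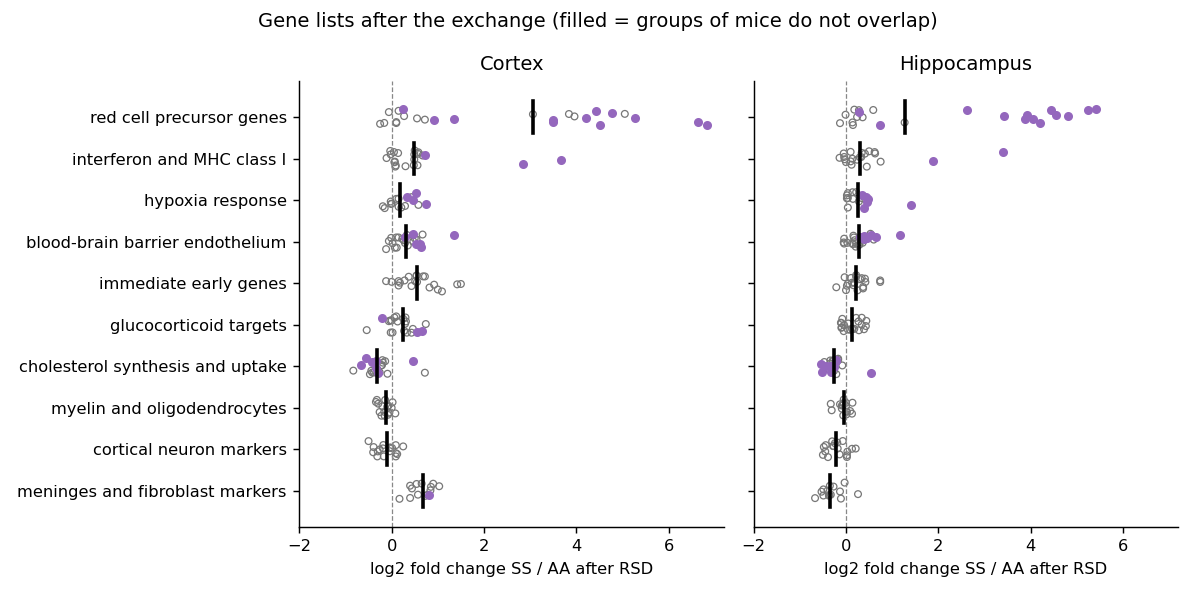
Log2 difference SS + RSD minus AA + RSD after the exchange (horizontal) of the members of each gene list, 1 point per gene, in cortex and in hippocampus; filled points are genes whose groups of mice do not overlap, and bars mark list medians. Red cell precursor genes reach 6.83 in cortex, and cholesterol genes lie mostly below 0 with medians of -0.31 and -0.26.

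Other genes passed in the mean of both regions without belonging to a list. Casq2, a calcium store protein of muscle, had 1.30, 1.43 and 1.51 CPM in AA + RSD cortex against 2.47 to 4.07 CPM, and 1.36 to 1.46 CPM against 2.45 to 3.91 CPM in hippocampus (1.16, adjusted p = 0.00601). Apol11b, of the apolipoprotein L family, had 0.286 to 0.505 CPM in AA + RSD cortex and 4.94 to 41.04 CPM in SS + RSD cortex (4.68, adjusted p = 0.00878). Pttg1 (securin), which holds sister chromatids together until anaphase, had 0.343 to 0.842 CPM against 1.77 to 3.46 CPM in cortex (1.79, adjusted p = 0.0215). Gm10371 had 0 or 1 read in each AA + RSD library and 0.136 to 0.563 CPM in the SS + RSD libraries (adjusted p = 0.0405), so no fold is given for it. Gm14267, the 1 gene that was lower, had 1.68, 1.95 and 1.30 CPM in AA + RSD cortex against 0.0584 to 0.302 CPM, and 0.606, 0.231 and 0.541 CPM in hippocampus against 0 to 0.181 CPM (-2.32, adjusted p = 0.016). Pcdhgb8, a clustered protocadherin of nerve cell contacts, had 0.446, 0.762 and 0.884 CPM in AA + RSD cortex against 5.40 to 7.24 CPM, and 0.694 to 0.891 CPM against 5.74 to 12.9 CPM in hippocampus (3.10, adjusted p = 4.21e-05). It shares 45.9% of its exon bases with other protocadherin genes, and its level in the other groups is given below. Igkv12-46, lower in hippocampus (-8.86, adjusted p = 0.00262), rested on 1 animal: mouse 9646 had 4.55 CPM, the other AA + RSD mice 0.0606 and 0 CPM and all SS + RSD mice 0, and it did not pass without that mouse.

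MHC class II genes, which mark antigen-presenting cells, were named after their values had been seen. In cortex the groups did not overlap: Cd74, the invariant chain, had 3.71, 3.53 and 2.44 CPM in AA + RSD mice and 6.96 to 61.01 CPM, median 9.13, in SS + RSD mice (2.49, SE 0.60, adjusted p = 0.171). H2-Ab1, H2-Eb1 and H2-Aa, the class II chains, had 2.78, 2.44 and 2.47 (adjusted p = 0.171, 0.207 and 0.388). Mouse 9615 was highest for all 4, and in hippocampus, where Cd74 was at 193 CPM in that mouse and 3.07 to 11.6 CPM in the other SS + RSD mice, the AA + RSD values of 6.84, 7.40 and 4.65 CPM lay inside the SS + RSD range. Without mouse 9615 the hippocampal H2-Aa difference changed from 2.63 to -0.26. B2m, the light chain of MHC class I, had a wide range too, up to 157 CPM in SS + RSD cortex and 260.9 CPM in SS + RSD hippocampus, where the medians were 66.6 and 61.9 CPM.

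Lists for stress and glia gave no gene that passed by edgeR, DESeq2 or limma. Of all genes, 3.09% in cortex and 2.93% in hippocampus had an unadjusted p under 0.05 in either direction. Immediate early genes, which follow neuronal activity, had medians of 0.54 in cortex and 0.22 in hippocampus and 6 and 3 of 20 at an unadjusted p under 0.05, but the groups overlapped for all 20 in both regions. Fos had 6.38 to 15.3 CPM in AA + RSD cortex and 11.1 to 40.4 CPM in SS + RSD cortex (1.42, SE 0.58, adjusted p = 1). Glucocorticoid targets had medians of 0.25 and 0.13 with 0 of 21 at an unadjusted p under 0.05 in either region, and Fkbp5, the best known of them, had 0.43 and 0.27. Homeostatic microglia genes (0.13 and -0.02), heme and iron handling (0.08 and 0.04), sphingolipid metabolism (-0.02 and 0.02), monoamine and serotonin genes (0.07 and -0.04) and neurogenesis genes (0.03 and 0.00) had medians within 0.15 of 0. Myelin genes had medians of -0.12 and -0.05. Inflammatory response genes had medians of 0.40 and 0.18, with 1 of 21 in cortex and 5 of 24 in hippocampus higher at an unadjusted p under 0.05, and their summed level in cortex did not overlap, at 86.99 to 90.88 CPM in AA + RSD mice and 99.18 to 125.7 CPM in SS + RSD mice. In hippocampus the sums did overlap, at 119.4 to 137.1 CPM in AA + RSD mice and 122 to 181.5 CPM in SS + RSD mice. Reactive astrocyte genes had medians of 0.39 and 0.14, with 5 of 18 in cortex and 1 of 17 in hippocampus higher at an unadjusted p under 0.05. Every SS + RSD mouse lay above every AA + RSD mouse for 5 of the 18 in cortex and 1 of the 17 in hippocampus, where 1.61% and 1.21% of all genes did. Maob, which breaks down monoamines, had 26.4 to 33.6 CPM in AA + RSD cortex and 29.1 to 37.6 CPM in SS + RSD cortex, with a difference of 0.10 (95% interval -0.27 to 0.47), and -0.07 (-0.50 to 0.35) in hippocampus.

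Markers of neighbouring tissue varied between libraries of 1 region. Meninges and fibroblast genes were all 14 above 0 in cortex (median 0.69) and 13 of 14 below 0 in hippocampus (median -0.36), with sums of 69.4 to 95.6 CPM in AA + RSD cortex and 84.8 to 203.8 CPM in SS + RSD cortex. Striatum markers summed to 294 to 729.1 CPM in AA + RSD cortex and 271.8 to 2154 CPM in SS + RSD cortex (median difference 0.42). Choroid plexus markers in hippocampus ran from 47.6 to 10040 CPM within the SS + RSD mice and from 198.4 to 5618 CPM within the AA + RSD mice. Thalamus and habenula markers had medians of 0.32 and -0.26, cortical neuron markers -0.11 and -0.22, and hippocampal neuron markers 0.08 and 0.15. The part of these tissues in the differences above was not tested.

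Whether the genotype difference itself differed between the regions was tested with mouse as a block. No gene passed (edgeR, 0% of 19373 genes), with 933 at an unadjusted p under 0.05. Values are hippocampus minus cortex. Of the genes with the smallest p whose mice did not overlap, Dagla (0.64), Nptx1 (0.64), Cacna1a (0.59), 2900026A02Rik (0.54) and Epha4 (0.49) lay above 0. Ogn (-1.49), Slc6a13 (-1.21), Nnat (-1.06), Cyp1b1 (-0.88) and Ly6h (-0.59) lay below 0, each of these genes at an adjusted p of 0.958. All but Cyp1b1 (1.27 in cortex and 0.36 in hippocampus) had opposite signs in the regions, and none passed in a single region. Cacna1a had -0.34 in cortex and 0.23 in hippocampus, Dagla -0.25 and 0.37, and Ogn 0.85 and -0.67. Ogn and Slc6a13 are meningeal markers. In this comparison of regions the whole meninges list had a median of -1.05, with 12 of 14 lower at an unadjusted p under 0.05. For Rsad2 the difference between regions was -0.26 (SE 0.26), for Alas2 -0.26 (SE 0.18) and for Insig1 0.01 (SE 0.11).

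Genes with the smallest p and no overlap in a single region that did not pass included E2f2, a cell cycle factor of erythroblasts, at 1.21, 1.85 and 1.88 CPM in AA + RSD hippocampus against 2.54 to 4.74 CPM (1.11, adjusted p = 0.0896). Among the lower ones in cortex was Gm29367 (-0.88, adjusted p = 0.171). In hippocampus Ddit4l, an inhibitor of mTOR signalling, had 14.4, 14.6 and 14.99 CPM against 4.59 to 9.69 CPM (-1.01, adjusted p = 0.977), Tekt5, a tektin of sperm tails, 10.1, 15.96 and 9.07 CPM against 4.04 to 8.81 CPM (-1.01, adjusted p = 0.208), and Pcdhb13 and Zfp286 had -0.63 and -0.34.

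The same genotype comparison in control mice (12 AA and 8 SS in cortex, 11 and 7 in hippocampus) and in RSD + minocycline mice (18 and 14) was used to ask whether the difference after stress was of another size. The paper describes separate cohorts, with minocycline given only in the later one, and the labels do not give the cohort of a mouse. A difference between conditions therefore cannot be told apart from one between cohorts. Tested as the difference of differences, no gene passed against control mice in cortex (0%) or hippocampus (0%), with 461 and 537 at an unadjusted p under 0.05, or 0 genes with 403 and 448 without the 4 mice. Against RSD + minocycline mice no gene passed in cortex (0%, 347 at an unadjusted p under 0.05 and 361 without the 4 mice) and 1 in hippocampus with and without them (0.00431% and 0.00432%), Igkv12-46, which rested on mouse 9646. These tests reuse the same SS + RSD and AA + RSD mice. Without the 4 mice, the log2 difference of Rsad2 in cortex was 2.94 in control, 3.67 in RSD and 2.89 in RSD + minocycline mice, and that of Alas2 4.14, 4.24 and 3.88. With all mice these were 2.28, 3.66 and 2.59 for Rsad2 and 2.84, 4.22 and 3.23 for Alas2. Most of the 4 mice were picked by Alas2, so its nearness between conditions without them is partly built in. Also without the 4 mice, the Rsad2 median in SS cortex was 10.5 CPM in 8 control, 15.3 CPM in 6 RSD and 12.2 CPM in 13 RSD + minocycline mice. In AA cortex it was 1.19, 1.38 and 1.52 CPM. The ranges of the SS groups overlapped, at 6.17 to 14.5, 12.7 to 27.03 and 6.36 to 18.4 CPM.

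For Insig1 the groups were placed otherwise, in values again given without the 4 mice. Its cortex difference was -0.04 in control, -0.53 in RSD and -0.25 in RSD + minocycline mice (with all mice -0.09, -0.56 and -0.25). Without the 4 mice the RSD value differed from the control value by -0.49 (SE 0.17, unadjusted p = 0.00465, adjusted p = 1). The medians were 64.9 CPM in AA control, 91.5 CPM in AA + RSD, 65.8 CPM in SS control and 65.2 CPM in SS + RSD cortex. The 10 AA control mice ran from 53.7 to 86.2 CPM, so their range met that of the 3 AA + RSD mice, 83.7 to 98.02 CPM. In AA + RSD + minocycline cortex the median was 73.8 CPM, with a range of 56.4 to 90.2 CPM that also overlapped it. In hippocampus the AA + RSD mice had 70.7 to 80.6 CPM and the 9 AA control mice 42.8 to 69.7 CPM, without overlap. Stress and cohort cannot be told apart in these Insig1 values. The Pcdhgb8 difference in cortex was not of 1 size. Without the 4 mice it was -0.14 (SE 0.58) in control, 3.15 (SE 1.05) in RSD and -1.14 (SE 0.46) in RSD + minocycline mice. With all mice it was 0.05 (SE 0.59), 3.12 (SE 1.11) and -0.79 (SE 0.46). Without the 4 mice its level ran from 0.588 to 5.76 CPM within AA control mice and from 0.630 to 9.24 CPM within SS control mice.

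**Figure D5:**
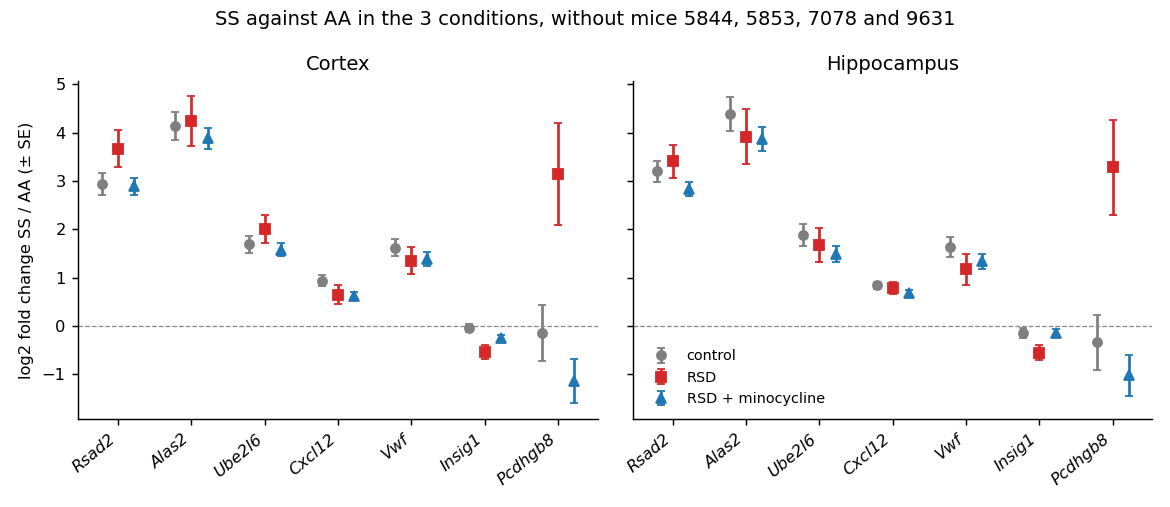
Log2 difference SS minus AA (vertical, with SE bars) of named genes in control, RSD and RSD + minocycline mice, in cortex and in hippocampus, without the 4 mice that stand apart. Alas2 lies at 4.14, 4.24 and 3.88 in the cortex of the 3 conditions, whereas Pcdhgb8 lies at -0.14, 3.15 and -1.14. With all mice, not drawn, Alas2 was at 2.84, 4.22 and 3.23.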

How the data were processed

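Polyadenylated RNA of cortex and hippocampus was sequenced as single reads from directional libraries. The authors aligned reads to GRCm39 with STAR and deposited raw counts per GENCODE gene, 1 table per region with 55416 genes; the annotation release and the strand setting of the counting are not given in the sources used here. Columns were matched to samples by their V number; 3 columns that matched no listed sample were not used, and 1 hippocampus sample without a known group was left out. In each region the libraries of 2 mice held identical counts under different group labels and were dropped; neither mouse is compared here. Reads outside genes made up 3.69% to 8.39% of the compared libraries. No source says that mice of a group are independent of each other beyond being separate animals. The cortex and hippocampus columns of mouse 9674 were exchanged. Counts were filtered with filterByExpr (minimum count 10, minimum total count 15), scaled by TMM and fitted in R 4.3.3 with edgeR 4.0.16 (quasi-likelihood), all groups of a region in 1 model; the study's methods describe a model for each genotype and tissue and add genotype comparisons. The 2 log2 CPM values of a mouse (prior count 2) were averaged and tested with limma 3.58.1 with a trend; these differences understate those of low genes. The difference between regions was tested in edgeR on the 9 mice with mouse as a block, since the 2 libraries of a number come from 1 animal. Calls have a Benjamini-Hochberg adjusted p under 0.05, tests are two-sided, and SEs are on the log2 scale. Named genes were up to 10 genes per direction that passed in a region (5 for the mean and the interaction), or where fewer than 3 passed the 5 of smallest p whose groups did not overlap (log2 CPM averaging 1 or more), list members that passed, Maob, Ttr, Dsp, Alas2, Slc4a1, and the 5 highest and lowest as labelled; further genes of the lists are given as examples. Some genes that the rule names are not reported here. The members, the 22 gene lists and the tests were chosen with earlier results of these data known, and the comparison with control and minocycline mice and the fit without 4 mice were added after the data had been seen. Alternatives were the labelled columns, leaving out each mouse, RLE scaling, no filter, DESeq2 1.42.0, a likelihood-ratio test, the 9 mice alone, the share of reads outside genes as a term, and SS mice numbered 96 alone. The scripts were tested on simulated data. Promoters were placed by the canonical transcript starts of GENCODE. Figures were drawn with matplotlib 3.10.9.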

Additional observations from a re-analysis of the deposited data

Results flagged for a closer look

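In 13 of 105 tests of the 6 SS + RSD mice (12.4%, where chance gives about 1 in 20), 1 mouse was far from the other 5 by the gap to its nearest neighbour as a share of the whole range (critical value 0.625). The tests are not independent, since genes of a group move together. The MHC class II genes entered them after their values had been seen, so the share of 12.4% cannot be set against that chance rate. Mouse 9615 was the highest for MHC class II genes. In cortex the gap share was 0.65 for Cd74 (61 CPM against 6.96 to 14.9 CPM in the other 5), 0.639 for H2-Ab1 (19.4 against 3.07 to 6 CPM), 0.811 for H2-Eb1 (25.4 against 3.97 to 5.64 CPM) and 0.745 for H2-Aa (33.9 against 4 to 6.9 CPM). In hippocampus it was 0.681 for Cd74 (193 against 3.07 to 11.6 CPM), 0.687 for H2-Ab1 (73.5 against 1.22 to 4.48 CPM) and 0.697 for H2-Eb1 (95.9 against 1.58 to 5.57 CPM). The same mouse was highest for Bpgm in hippocampus (0.693, 125 against 103 to 109 CPM).

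Mouse 9621, whose 2 libraries had the least distinct region scores among the 8 mice that were not exchanged, was lowest for Ddit4l in cortex (0.775, 10.4 against 25.6 to 33.2 CPM), for Gcnt4, a glycosyltransferase gene, in cortex (0.802, 9.03 against 18.7 to 22.4 CPM) and for Dsp in hippocampus (0.626, 31.5 against 66.5 to 104 CPM). Mouse 5354 was highest for Adm in cortex (0.673, 5.44 against 3.84 to 4.31 CPM) and for Tspo2 in hippocampus (0.663, 2.34 against 1.58 to 1.81 CPM).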

How the results depend on the processing

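The count of genes that passed depended on the settings in a single region more than in the mean of both. In cortex, 3 became 113 as labelled, 0 to 3 with 1 mouse left out (0 without 9643, 9646 or 9674), 18 in a model of the 9 mice, 24 with DESeq2, 11 with the likelihood-ratio test, 11 with the share of reads outside genes as a term, and 19 without mice 5844, 5853, 7078 and 9631. In hippocampus, 3 became 181 as labelled, 0 to 4 with 1 mouse left out (0 without 9646), 14, 17, 6, 7 and 17 under the same settings. RLE scaling, no filter and the SS mice numbered 96 alone left 2 or 3 in each region, and in the mean of both regions 17 to 23 genes passed over all its settings, 15 to 23 of them shared with the 23. Between regions 0 genes passed under each setting, also with no replicate block, where mouse was not a term (0, with 533 at an unadjusted p under 0.05).

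Rsad2 kept its call in 15 of 18 alternatives in cortex and 17 of 18 in hippocampus, Fam46c in 14 and 10, and Ube2l6 in cortex in 10 (adjusted p up to 0.727). In the mean of both regions calls were kept in 13 of 13 by Alas2, Slc4a1, Hba-x, Trim10, Tspo2, Epb42, Bpgm, Rsad2, Isg15, Isg20, Ube2l6, Cxcl12 and Pcdhgb8. Fam46c and Hbq1a kept theirs in 12, Casq2 and Apol11b in 10, Gm14267 in 9, Pttg1 in 6, Eng in 4, Gm10371 in 3 and Adm in 2. Of the single-gene values 17 changed sign, none of a gene that had passed. As labelled these were Dsp in cortex (-5), Maob in hippocampus (0.01) and Nnat between regions (0.11). With 1 mouse left out they were Kcne2 in cortex (-1.1 to 0.54, above 0 without 9643, 5391, 5400 or 9615), and in hippocampus Maob (-0.21 to 0.05, above 0 without 9674 or 5391), Gm47415 (-4.86 to 1.38, above 0 without 9643), Ttr (-1.72 to 3.15, below 0 without 9643, 9646, 9615 or 9616) and H2-Aa (-0.26 to 2.9, below 0 without 9615). With the SS mice numbered 96 alone they were Kcne2 (0.5) and Maob (0.18). The cause was not tested. Depth limits the low genes: Epb42, Gm10371, Trim10 and Tspo2 had few or no reads in AA + RSD libraries, so the size of their differences depends on the prior count. The group of 3 AA + RSD mice limits the rest.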
